A study of Mus musculus with 6 samples.

Results

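The forkhead transcription factor family was examined in nuclear RNA from mouse embryonic stem cells (ESCs) engineered for removal of the Polycomb proteins RYBP and YAF2. Members were taken by symbol, as every protein-coding gene named *Fox* with a subfamily letter from a to s and a number. The rule found 44 genes of 19237 gene symbols, represented by 47 of the 20633 transcript entries in the table of levels. Where a gene had several entries, the entry with the highest mean was kept, which applied to *Foxp1* and *Foxp2*. The members were then split by that same mean, so the resulting groups are a description and not a finding.

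Forkhead proteins bind DNA through a winged-helix domain in which a recognition helix lies in the major groove. Some members act in most cell types: the FOXO proteins are held out of the nucleus when insulin signalling activates AKT, FOXM1 drives genes of mitosis, and FOXK1 and FOXK2 recruit the deubiquitinase BAP1. Many others specify tissues in the embryo, such as FOXA proteins in the endoderm, FOXL2 in the ovary and FOXP3 in regulatory T cells, and genes of this developmental kind are frequent targets of Polycomb repression in ESCs.

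All 6 libraries came from RYBPfl/fl;YAF2-/- ESCs, a line in which both alleles of *Rybp* are flanked by loxP sites, a tamoxifen-inducible Cre is expressed and coding exons of *Yaf2* had been deleted by genome editing in an isolated colony. Libraries were made from 3 untreated samples (UNT, n = 3) and 3 samples given 800 nM 4-hydroxytamoxifen for 96 hr (OHT, n = 3). The *Yaf2* deletion was therefore common to untreated and treated cells, and no tamoxifen-treated cells without the floxed allele were part of this comparison. Nuclear RNA, which includes unspliced transcripts, was depleted of rRNA and made into libraries with a directional kit.

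The level analysed here was the authors' mean of normalized counts over all 6 libraries, UNT and OHT together. It carries no spread between replicates, and no difference between OHT and UNT was computed. *Rybp* had a mean of 13983 (percentile 99.3 among the 19198 entries above 0), which cannot check the OHT labels because the groups are pooled, and *Yaf2*, deleted in all 6 libraries, had a mean of 3.24. The ESC markers measured were all above the median of 307 normalized counts (9 of 9, from 1565 to 14300, with *Pou5f1* at 3039 and *Nanog* at 2930). Markers of other lineages reached that median in 2 of 6 cases for primitive endoderm (*Lama1* and *Dab2*, means of 18.8 to 5169), 1 of 5 for trophoblast (*Tfap2c*, 5.21 to 1131), 0 of 5 for mesoderm (1.35 to 47.7), 2 of 5 for neural cells (*Nes* and *Tubb3*, 1.77 to 768) and 1 of 6 for fibroblasts (*Col1a1*, 2.42 to 369). In bulk RNA a low level from every cell cannot be told apart from a higher level in a few cells, and the part of other cell types in the low forkhead levels was not tested.

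What the members share is best seen in the coding bases of the recognition helix. A stretch of 8 codons was searched in the coding sequences of 17255 genes: any residue at the first and second codons, isoleucine or valine, arginine, histidine, asparagine, leucine, and any residue. It was present in 43 genes (0.249%), of which 38 were forkhead genes. The 6 members without it were *Foxa1*, *Foxa2*, *Foxa3*, *Foxb1*, *Foxb2* and *Foxr1*. The 24 bases are given 5′ to 3′ on the coding strand for *Foxn3* and *Foxj3*, each the highest of a transcribed subfamily, for *Foxh1* and *Foxd3*, which are low by mean but high per kilobase, and for *Foxe3*, which had no counts. Capitals mark bases unlike the most common base of the 38 members at that position. Sequences are from GENCODE vM21 transcripts on GRCm38.
Foxn3: aactcAGtGAgAcacaacTtgtcA
Foxj3: aaTtcTatAcgAcaTaaTctgtcA
Foxh1: GactccatccgccacaacctTtcc
Foxd3: aacAGcatccgccacaacctgtcG
Foxe3: aacAGcatccgccacaacctCAcc
The *Foxn3* stretch (exon 2, chr12:99388403-99388426, minus strand) differs from the most common base at 7 of 24 positions and that of *Foxj3* (exon 4, chr4:119585750-119585773, plus strand) at 7. *Foxh1* (exon 2, chr15:76669250-76669273, minus strand) differs at 2 positions and *Foxd3* (exon 1, chr4:99657153-99657176, plus strand) at 3. *Foxe3* (exon 1, chr4:114925663-114925686, minus strand) differs at 4 positions.

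The 38 stretches comprised 34 distinct base sequences but 7 encoded sequences. The most common encoded sequence was shared by 23 members through 21 different base sequences, so most of these genes differ in their DNA where the helix does not. It was found at every level of transcription, in 7 of 11 transcribed, 6 of 11 low and 10 of 16 near-silent members with the stretch. Between any pair of members, at least 11 of the 24 bases were shared, with a median of 18. No stretch was split by an intron.

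The family was divided between a few transcribed genes and many that were close to silent. At or above the median mean of entries above 0 (307 normalized counts) lay 11 members, a further 13 lay between 10 normalized counts and that median, and 20 lay under 10. Over all 20633 entries, 46.5% reached the median and 24.2% were under 10, compared with 25.0% and 45.5% of forkhead genes. The larger share of near-silent forkhead genes depended on the length scale. Per kilobase (kb) of gene span, 11 of 44 members lay under the limit of 0.593 that 24.2% of entries lie under. On that scale the family had about the same share as all entries. Per kb of exon the number was 21. The 11 transcribed members held 95.5% of the 31382 normalized counts of the family, and the 20 near-silent members together held 67.3 counts, or 0.214%. At the edges of these groups, *Foxo4* (465) was the lowest transcribed member, *Foxn4* (305) lay just under the median, *Foxc1* (27.1) was the lowest of the low group and *Foxf1* (8.85) the highest near-silent member.

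**Figure D1:**
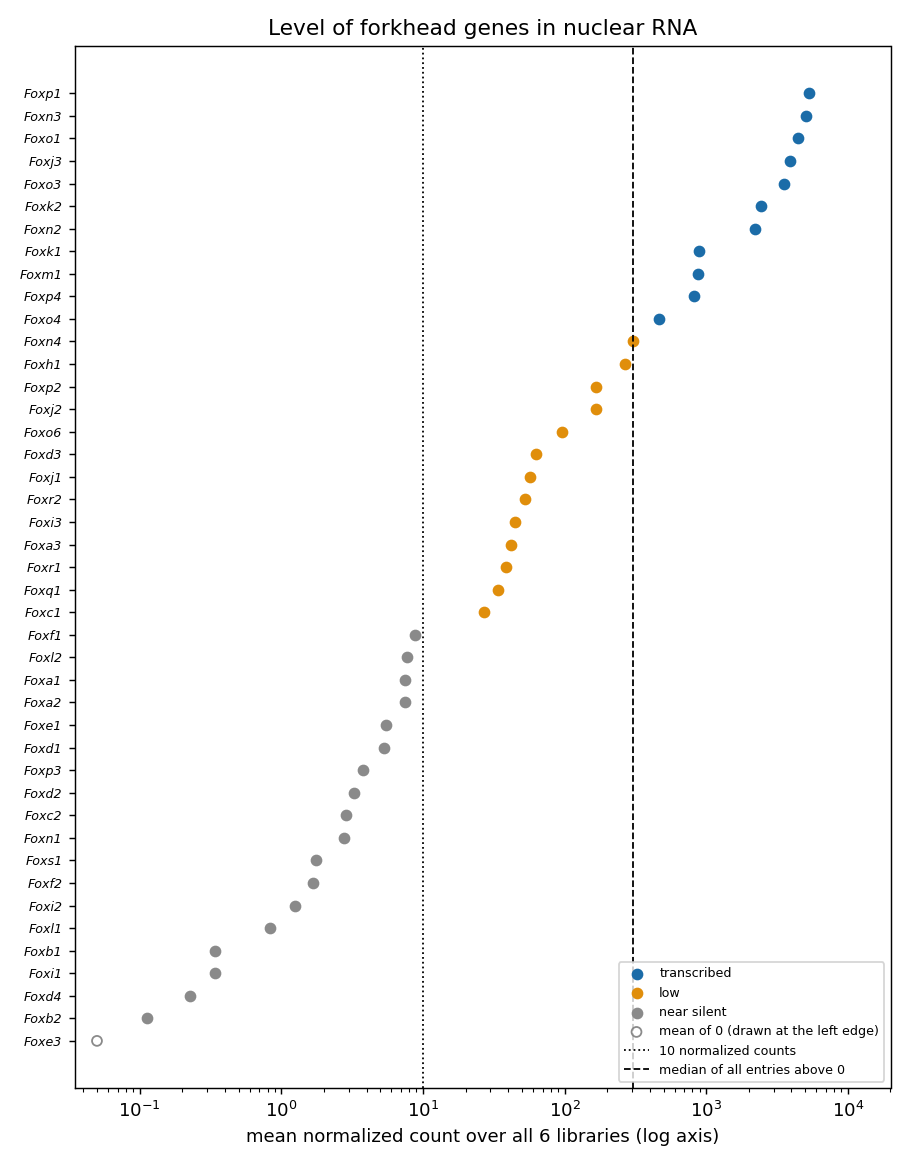
Mean normalized count of 43 of the 44 forkhead genes over all 6 libraries (x axis, log scale), 1 point per gene, coloured by group, with dotted and dashed lines at 10 normalized counts and at the median of all entries above 0. The 11 transcribed genes run from 465 to 5277, the 19 near-silent genes shown from 0 to 8.85, and no gene lies between 8.85 and 27.1; no error is drawn because the authors' mean carries none.

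Long genes can collect more counts in nuclear RNA, so members were compared with each other per kilobase of gene span. Among 767 pairs of entries of the same gene, the ratio of the means followed the ratio of the gene spans (Spearman's rho = 0.84) more closely than the ratio of exon lengths (rho = 0.39), which is why the span was used. These pairs are not independent, since entries of one gene share sequence. In 69 pairs with like exon length and spans over 2-fold apart, the median absolute log2 ratio of means was 0.83, less than a 2-fold difference. Counts in those pairs thus rose less than in proportion to span. Division by span can therefore place short genes too high and long genes too low. Over the 44 members, ranks by mean and by mean per kilobase had a rho of 0.902, a description of genes measured in the same libraries.

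Of the 4 genes that encode FOXO proteins, 3 were transcribed well above the median per kilobase of span. *Foxo4*, the shortest of them, had 73.2 normalized counts per kb (mean 465), *Foxo1* 52.8 per kb (mean 4481) and *Foxo3* 39.1 per kb (mean 3554). *Foxo6*, which is known mainly from the brain, had 4.75 per kb (mean 96.3), below the median of 14.0 per kb for all entries above 0, which the other 3 exceeded. The means alone place *Foxo4* last of the first trio and the per-kilobase levels place it first, because its span is 6.35 kb.

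The genes encoding the BAP1-binding FOXK proteins were also both transcribed, with *Foxk2* at 48.5 per kb (mean 2420) and *Foxk1* at 14.7 per kb (mean 891). *Foxm1*, whose product activates mitotic genes with the MuvB complex, had 66.3 per kb (mean 874). *Foxj3* had 43.5 per kb (mean 3894), whereas *Foxj2* had 6.52 per kb (mean 166) and *Foxj1*, the regulator of motile cilia, 12.2 per kb (mean 57.1).

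The FOXN and FOXP subfamilies spanned both ends of the range. *Foxn2* had 44.0 per kb (mean 2193) and *Foxn3*, a checkpoint suppressor, 19.9 per kb (mean 5084). *Foxn4*, required for amacrine cells of the retina, had 15.5 per kb (mean 305). In contrast, *Foxn1*, the thymic epithelial gene mutated in nude mice, had 0.0960 per kb (mean 2.78). Among the FOXP genes, which encode zinc-finger and leucine-zipper repressors, *Foxp4* had 14.5 per kb (mean 821) and *Foxp1* 10.3 per kb over its longest entry (mean 5277). *Foxp2*, studied for its part in vocal learning, had 0.310 per kb (mean 168), and *Foxp3* 0.244 per kb (mean 3.80). Of 19 subfamilies, 6 contained a transcribed member (J, K, M, N, O and P), and in 6 every member was near silent.

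*Foxh1* and *Foxd3*, genes with roles in early embryonic cells, reached the median per kilobase of span but not by mean, as did *Foxn4*. A higher place per kilobase was not particular to them. Other short genes also rose, such as *Foxj1* (percentile 31.4 by mean, 47.7 per kb) and *Foxs1* (8.65 and 24.8). Long genes such as *Foxp1* fell (94.9 and 45.4). *Foxh1*, whose product carries SMAD complexes to Nodal target genes, had a mean of 267 over a span of 1.72 kb, giving 155 normalized counts per kb, the highest of the 44 members and at percentile 92.6 of all entries above 0. The RefSeq gene is longer, at 3.79 kb, and over that span the value was 70.5 per kb, still first but next to *Foxo4* at 70.3 per kb, so the order of these neighbours rests on the gene model. *Foxd3*, known from pluripotent cells and the neural crest, is a gene of 1 exon and had 27.0 per kb (mean 62.8), at percentile 61.6. The exon scale gave another order: *Foxh1* ranked 9 of 44 with 195 normalized counts per kb of exon, and *Foxd3* had 27.0 against a median of 119, at percentile 32.5, close to its 32.2 by mean.

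**Figure D2:**
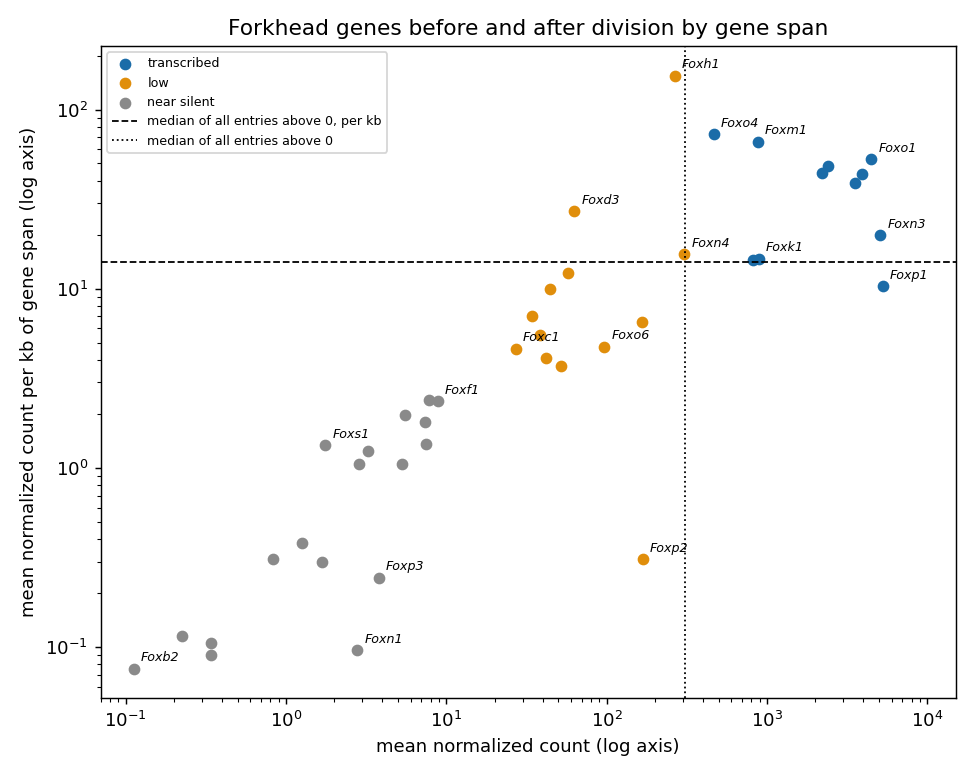
Mean normalized count (x axis, log scale) against the same mean per kb of gene span (y axis, log scale) for the forkhead genes of the plot of levels with a mean above 0, 1 point per gene, with the medians of all entries above 0 as lines. *Foxh1*, *Foxd3* and *Foxn4* lie left of the median by mean and above it per kb (155, 27.0 and 15.5 against 14.0), and *Foxp1* lies right of the median by mean and below it per kb (10.3).

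The remaining low members all lay below the per-kilobase median. *Foxi3*, a gene of ectodermal placodes, had 10.0 per kb (mean 44.6), *Foxq1* 7.04 (mean 34.1), *Foxr1* 5.54 (mean 38.4), *Foxc1*, which acts in the eye and in vessels, 4.63 (mean 27.1), the endodermal gene *Foxa3* 4.09 (mean 42.0) and *Foxr2* 3.71 (mean 52.3). *Foxa3* lies 838 bp from *Sympk* (mean 2194) on the opposite strand. *Foxh1* lies 28 bp from *Kifc2* (mean 167) and 1666 bp from *Ppp1r16a* (mean 594), each on the opposite strand. *Foxj1* (mean 57.1) lies 953 bp from *Rnf157* (mean 511) on the same strand. Reads reaching over from these neighbours were not tested, and the sources used here do not say whether strand entered the counting.

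The low value per kilobase of *Foxp1* depended on which of its 3 entries was read. The entries overlap: the shortest spans 98.8 kb, the next 341.2 kb and the longest 510.0 kb. The shortest entry had a mean of 4091, which is 77.5% of the mean of the longest on 19.4% of its span, giving 41.4 normalized counts per kb. Assuming that a read in a shared stretch counted for each entry, the sequence added by the next entry held 630 normalized counts over 242.4 kb, or 2.60 per kb, and that added by the longest held 556 over 168.8 kb, or 3.29 per kb. Except for a short stretch at the 3′ end, the added sequence lies upstream of the start of the shortest entry. That stretch includes exon sequence, and exon length was 2468 bp in the shortest entry and 7029 bp in the next. How many of the 630 normalized counts fell in added exons was not measured. The 2.60 per kb is therefore not a level of the upstream sequence alone. *Foxp2* showed no such step: its shorter entry (252.8 kb) had 0.172 per kb and the added 287.8 kb had 0.431 per kb.

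**Figure D3:**
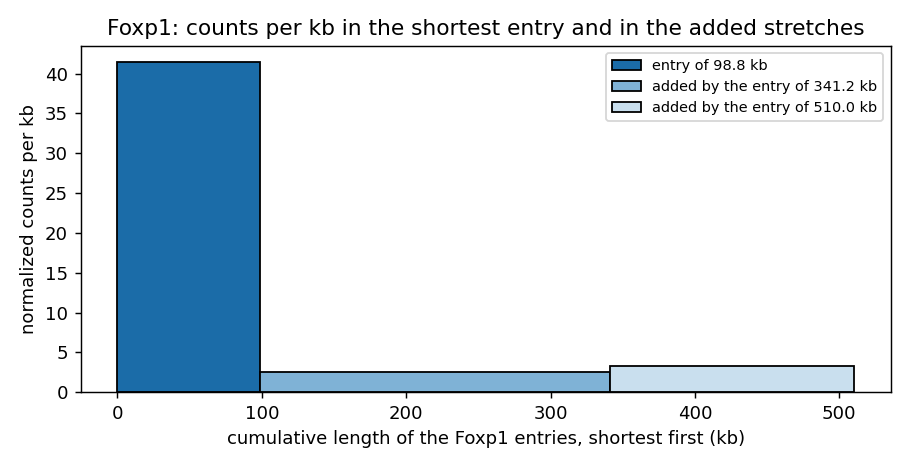
Normalized counts per kb (y axis, from 0) in the shortest *Foxp1* entry and in the sequence that each longer entry adds, drawn to scale along the cumulative entry length in kb (x axis), with means over all 6 libraries and no error. The shortest entry stands at 41.4 per kb and the added stretches at 2.60 and 3.29 per kb. The stretch at 2.60 per kb includes exon sequence at the 3′ end as well as upstream sequence.

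The starts of *Foxp1* also differed in sequence. The 250 bases before the RefSeq start nearest the shortest entry, which lies 40 bp upstream of that entry (chr6:99028299-99028548, minus strand), held 34 CG dinucleotides, and those directly before the next entry (chr6:99266516-99266765, minus strand) held 3. They are shown 5′ to 3′ beside those of *Foxe3* (chr4:114926068-114926317, minus strand), the only member with a mean of 0, whose RefSeq start lies 54 bp upstream of its entry, which held 6. Sequences are from RefSeq on GRCm38.p6 and capitals mark CG dinucleotides.
Foxp1, RefSeq start nearest the shortest entry: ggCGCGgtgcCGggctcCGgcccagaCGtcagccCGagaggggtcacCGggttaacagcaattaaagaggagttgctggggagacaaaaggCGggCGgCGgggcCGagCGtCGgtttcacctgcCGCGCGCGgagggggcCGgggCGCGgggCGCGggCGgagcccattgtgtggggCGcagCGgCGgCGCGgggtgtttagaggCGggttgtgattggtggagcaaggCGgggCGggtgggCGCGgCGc
Foxp1, start of the next entry: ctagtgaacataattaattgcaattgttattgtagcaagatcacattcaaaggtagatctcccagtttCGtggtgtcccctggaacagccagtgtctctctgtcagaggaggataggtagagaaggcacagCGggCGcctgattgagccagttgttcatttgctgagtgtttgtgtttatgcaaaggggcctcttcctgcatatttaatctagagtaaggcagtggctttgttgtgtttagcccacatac
Foxe3: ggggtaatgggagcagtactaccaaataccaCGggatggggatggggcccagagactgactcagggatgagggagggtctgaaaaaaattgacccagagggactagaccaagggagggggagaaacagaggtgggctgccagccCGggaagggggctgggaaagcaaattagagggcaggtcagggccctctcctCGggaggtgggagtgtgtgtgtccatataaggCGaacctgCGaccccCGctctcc
Over windows of 300 bases, from 250 before to 50 after the start, the ratio of CG dinucleotides observed to those expected from base composition was 1.11 at the RefSeq start nearest the shortest *Foxp1* entry (GC content 75.3%), 0.282 at the start of the next entry and 0.345 at *Foxe3*. A further RefSeq start of *Foxp1*, where no entry of the table begins, had a ratio of 0.499.

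The same ratio was higher among transcribed members than among near-silent members, which is given as a description. A promoter window within 500 bp of the start of the kept entry was at hand for 27 of 44 members and 6 of 11 transcribed members, that of *Foxp1* not among them. Each window covers 1 RefSeq start and can miss a CG-rich start elsewhere in the gene. The starts of *Foxp1* ranged from 0.282 to 1.11. The median ratio was 0.971 for 6 transcribed members, 0.741 for 8 low members and 0.548 for 13 near-silent members, compared with 0.664 for 14464 genes. A ratio of at least 0.6 was found in 5 of 6, 7 of 8 and 6 of 13 members of these groups, and in 55.8% of all genes. *Foxk2* had the highest ratio (1.28) and *Foxn3* (0.294) was the exception among transcribed genes, at a RefSeq start with 6 CG dinucleotides. The near-silent group ranged from *Foxi2* (0.198), *Foxi1* (0.232) and *Foxn1* (0.272) to *Foxf2* (0.787) and *Foxa1* (0.929), so ratios above the genome median also occurred in near-silent genes. Across the 27 members the mean and the ratio had a Spearman's rho of 0.541, and across 14464 genes of 0.656, with genes of the same libraries as points. The letters TATAAA, on either strand, occurred in the windows of *Foxa3* and *Foxp3* and in 10.3% of all windows.

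**Figure D4:**
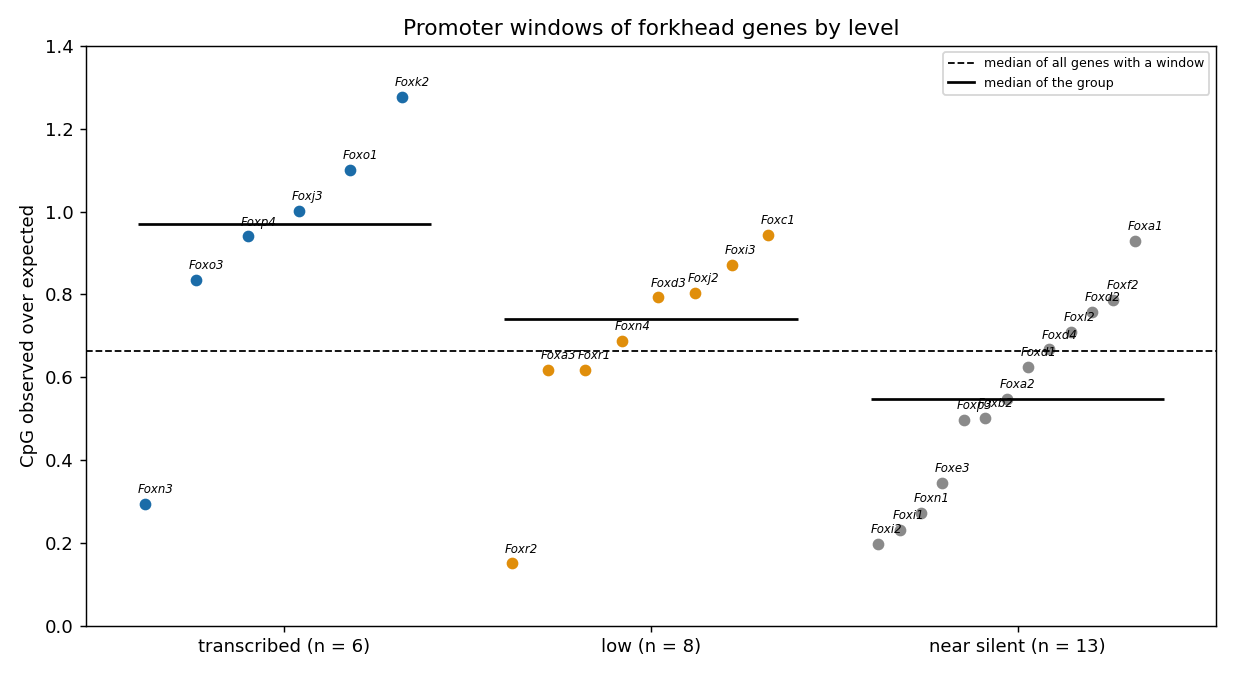
Ratio of observed to expected CG dinucleotides (y axis) in promoter windows of 300 bases for 27 forkhead genes, 1 point per gene, ordered by the ratio within the transcribed, low and near-silent groups. Solid lines mark group medians (0.971, 0.741 and 0.548) and the dashed line the median of all genes (0.664); *Foxn3* and *Foxr2* lie far below the rest of their groups.

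Most near-silent members were short genes with few exons. Of the 20, 11 had 1 exon and 17 had at most 2, with a median span of 3.29 kb. The range was wide, since *Foxp3* had 14 exons over 15.6 kb and *Foxn1* 9 exons over 29.0 kb, both longer than the transcribed *Foxm1* and *Foxo4*. The transcribed members had 3 to 19 exons (median 8), none had 1 exon, and their median span was 60.5 kb. The 13 low members included 3 genes of 1 exon (*Foxd3*, *Foxq1* and *Foxc1*) and had a median span of 6.94 kb. In total 14 of 44 forkhead genes (31.8%) had 1 exon, against 5.42% of all entries with a gene model, whose median was 7 exons and 19.2 kb. The groups thus differed in span as well as in mean, and the part of length in the contrast of means was not tested. The per-kilobase medians were 43.5, 6.52 and 0.714 for the transcribed, low and near-silent groups. The lowest transcribed value (10.3 per kb, *Foxp1*) exceeded the highest near-silent value (2.38 per kb, *Foxl2*). The groups were cut on the same mean that is divided by span here, so these per-kilobase values are a description.

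At the lowest means the counts of the individual libraries could be read from the deposited values. Each of the 1043 distinct means above 0 and under 3 could be written in exactly 1 way as whole counts divided by 6 size factors, within 1.5e-09 normalized counts. The size factors ran from 0.664 to 1.48, so that the deepest library had 2.23 times the depth of the shallowest. The libraries are numbered here from the largest size factor to the smallest, and which of them were UNT or OHT is not known. Of the counts above 0 behind these means, 74.8% were even numbers, so a count is not equated here with a fragment.

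*Foxe3*, which acts in the lens, had 0 counts in all 6 libraries. This allows up to 3 counts in total if counts are independent, and up to 6 counts if each fragment gave 2 counts. As means these are at most 0.753 and 1.51, which hold where all the counts fall in the shallowest library. *Foxb2* had 1 count and *Foxd4* 2 counts, in library 1, and the inner ear gene *Foxi1* and the diencephalic gene *Foxb1* each had 2 counts, in library 3. *Foxl1*, a marker of the gut mesenchyme, had 6 counts, 4 of them in library 2 and 2 in library 3. These genes were seen in at most 2 libraries each, and no level could be set for them beyond a few counts.

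*Foxi2* had 10 counts, 8 of them in library 1. *Foxf2*, a gene of the mesenchyme, had 12 counts in 4 libraries and *Foxs1* 10 counts in 4 libraries. *Foxn1* and *Foxc2*, the latter required for lymphatic vessels, had 17 counts each in 5 libraries, and *Foxd2* 18 counts in 4. *Foxp3* had 24 counts in 5 libraries, 10 of them in library 4. *Foxp3* shares 1437 bp with *Ccdc22* on the opposite strand (mean 396, 33.8 per kb, against 0.244 per kb for *Foxp3*). Within the shared bases only, reads of this pair cannot be told apart unless strand was used. Whether counts of *Foxp3* came from *Ccdc22* was not tested.

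The thyroid gene *Foxe1* had 18, 1, 0, 8, 6 and 3 counts in libraries 1 to 6, and the kidney stroma gene *Foxd1* 15, 10, 2, 7, 4 and 0. Each had no count in 1 library, and it was a different library for each. The 4 highest near-silent genes lay above the highest mean examined (6 normalized counts), so only bounds on their total counts are given. *Foxf1* (mean 8.85) rested on 36 to 78 counts, *Foxl2* (7.76) on 31 to 68, *Foxa1* (7.51) on 30 to 66 and *Foxa2* (7.42) on 30 to 65.

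**Figure D5:**
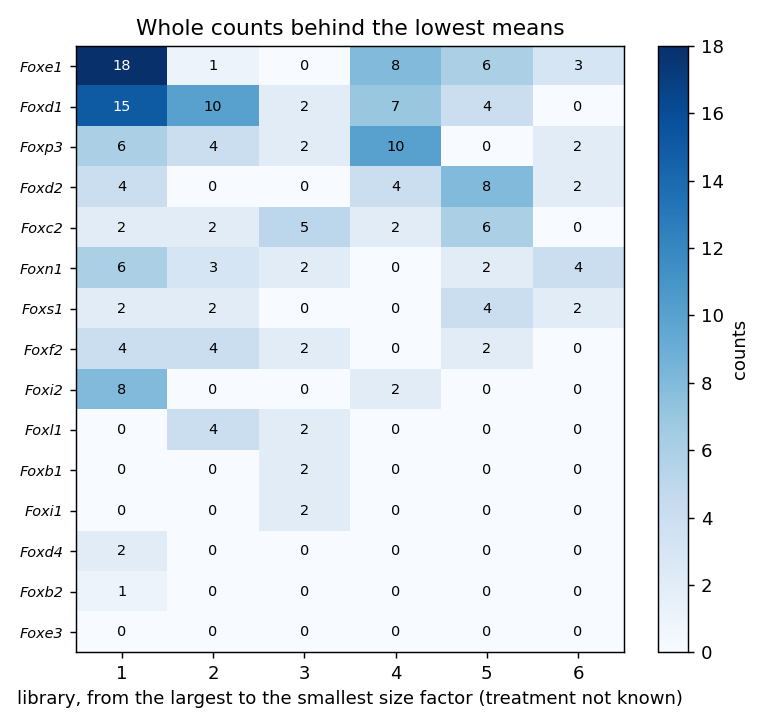
Whole counts of 15 of the lowest forkhead genes (rows) in each of the 6 libraries (columns, from the largest to the smallest size factor, treatment not known), with the count printed and shaded in each cell. Counts reach 18 for *Foxe1* in library 1, and *Foxe3* has 0 throughout.

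Several near-silent and low members neighbour each other, all on the same strand within a cluster. On chromosome 8, *Foxf1* (mean 8.85), *Foxc2* (2.85) and *Foxl1* (0.834) follow each other at gaps of 28.0 and 9.04 kb, and all were near silent. On chromosome 13, *Foxq1* (34.1), *Foxf2* (1.68) and *Foxc1* (27.1) are separated by 64.8 and 175 kb, with *Foxf2* far below its neighbours (0.300 per kb against 7.04 and 4.63). On chromosome 4, *Foxd2* (3.24) and *Foxe3* (0) lie 16.3 kb apart. No transcribed member had another member within 500 kb.

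Most genes that act with the transcribed forkhead proteins were transcribed too. All 23 measured regulators of FOXO proteins reached the median of 307 normalized counts, compared with 46.5% of all entries. Per kb of span, *Irs1* (mean 310) and *Pik3r1* (mean 892, 10.2 per kb) lay below the median of 14.0. The exportin *Xpo1* had 354 normalized counts per kb, the genes *Ywhae* and *Ywhag* of 14-3-3 proteins, which hold phosphorylated FOXO in the cytoplasm, had 352 and 335, and the insulin receptor substrate *Irs1* had 5.32, the lowest. Of the FOXK partners 11 of 12 reached the median, with *Ogt* at 241, *Hcfc1* at 236 and *Bap1* at 175 per kb and the histone demethylase gene *Kdm1b* lowest at 24.3, and *Mbd6* (mean 281) was the gene that missed it. Of the genes around FOXM1 13 of 14 did so, led by *Ccnb1* (519 per kb), *Ccna2* (452) and *Cenpf* (315), with the MuvB subunit gene *Lin9* lowest at 28.2, and *Lin37* (mean 139) missed the median. All 11 FOXP partners did, from the NuRD subunit gene *Chd4* (454 per kb), *Ctbp2* (208) and *Mta2* (193) down to *Mta3* (22.2).

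In the Nodal pathway, which FOXH1 serves, 12 of 14 measured genes reached the median and 2 were near silent. The Nodal co-receptor gene *Tdgf1* had 2181 normalized counts per kb and the Nodal antagonist genes *Lefty1* and *Lefty2* had 746 and 426. The near-silent genes were the receptor gene *Acvr1c* (0.0117 per kb, mean 1.06) and the homeobox gene *Gsc* (mean 0.392). *Smad3* (mean 1074) reached the median by mean but not per kb of span (9.66 against 14.0). *Nodal* itself was not analysed here.

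By the shares of transcribed and near-silent genes and by median level, the forkhead genes lay between the Hox and Sox families. Those families are developmental transcription factors too. The forkhead share of low genes was below both, with 13 of 44 against 15 of 39 Hox and 11 of 19 Sox genes. The highest forkhead mean (5277, *Foxp1*) was above that of both families. Of 39 Hox genes, 0 reached the median and 24 were near silent, with no mean above 69.5. Of 19 Sox genes, 6 reached the median and 2 were near silent (*Sox9* and *Sox14*), with a highest mean of 4013 for the pluripotency gene *Sox2*. The median level per kb of span was 2.11 for Hox, 3.90 for forkhead and 5.62 for Sox genes, against 11.0 for all entries. These families were set side by side without a test.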

How the data were processed

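Nuclear RNA was sequenced from 6 libraries of RYBPfl/fl;YAF2-/- ESCs, 3 UNT and 3 OHT, labelled as replicates. The study's methods describe them as biological triplicates. According to the study's methods, rRNA reads were removed with Bowtie2, the rest were aligned to mm10 with STAR, unmapped reads were realigned with Bowtie2, and reads were counted over a non-redundant set of RefSeq genes. The deposited table holds the authors' mean normalized count per entry over all libraries, used here as a signal value. Its other columns hold the authors' comparison of OHT with UNT (fold change, error, statistic, p-values and a significance mark) and were not used. The planned test of OHT against UNT was not run, because the table pools the libraries and the whole counts recovered for the lowest means carry no treatment label, and no column of per-sample values was left unmapped (0). Signal tracks were not used. Normalization by size factors assumes that most genes are alike between libraries.

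RefSeq identifiers were matched to symbols in the RefSeq table of GRCm38.p6 (20450 of 20633 entries, 183 without a symbol) and to GENCODE vM21 models (20261 entries). Every forkhead gene was named except 1 near-silent gene, which is counted but not reported here. Transcribed means at or above the median of entries above 0, near silent means under 10 normalized counts, and low lies between. From each pathway list the 3 highest and the lowest measured genes per kb of span were named. *Foxh1* and *Foxd3* were shown, and *Gsc*, *Mbd6*, *Lin37*, *Pik3r1*, *Smad3* and the lineage markers named, chosen after their values were seen. Members and lists were chosen with earlier results of these data known. Coding bases stand in for proteins, which were not used here. Promoter windows cover 250 bases before to 50 after a RefSeq start and matched 27 members; those of *Foxb1*, *Foxc2*, *Foxe1*, *Foxf1*, *Foxh1*, *Foxj1*, *Foxk1*, *Foxl1*, *Foxm1*, *Foxn2*, *Foxo4*, *Foxo6*, *Foxp2*, *Foxq1* and *Foxs1* were not analysed here. Size factors were solved from the lowest means, an approach added after seeing the data and tested on simulated data. The simulated counts were independent, whereas 74.8% of the recovered counts were even, so the simulation does not cover that feature of the data. Floors and counts cover counting error only. Python 3.11.15, pandas 2.3.3, numpy 2.4.6, scipy 1.17.1 and matplotlib 3.10.9 were used.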

Additional observations from a re-analysis of the deposited data

How the results depend on the processing

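The number of transcribed members was 11 as reported and stayed between 11 and 13 when the entry kept, the reference median or the length scale was changed. The number of near-silent members was 20 and moved to 13 with a limit of 5 normalized counts. It was 11 per kb of span, where *Foxp2* was included, and also 11 per kb of the RefSeq gene span, a scale chosen after seeing the data. Of the 20 near-silent members, *Foxn1*, *Foxp3*, *Foxa1*, *Foxd1* and *Foxi1* are among those that ranked lower in the family per kb of span than by mean. The 5 highest members held 71.0% of the family total as reported and 77.3% when the entries of a gene were summed. The sum counts reads in overlapping *Foxp1* entries more than once if a shared read counted for each entry. The share was 70.6% per kb of exon, 56.4% per kb of span and 50.7% per kb of the RefSeq gene span. No paired analysis was possible because the level analysed is a mean over all 6 libraries. For the same reason, leaving out each replicate in turn was not run. For means under about 3 normalized counts the depth limits any statement to a few counts.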

Other observations

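Non-coding neighbours of near-silent members were near silent or low as well. *Fendrr*, the long non-coding RNA gene 1353 bp from *Foxf1*, had a mean of 8.32 beside 8.85 for *Foxf1*. *Foxd2os*, 383 bp from *Foxd2*, had a mean of 17.8 beside 3.24, and *Foxl2os*, which shares 12 bp with *Foxl2* on the opposite strand, had 20.9 beside 7.76. *Flicr*, which shares 1352 bp with *Foxp3*, had 7.67 beside 3.80. These are means over all 6 libraries with no error, given as values.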
